A study of Sus scrofa with 21 samples.

Results

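The red cell membrane and skeleton genes described here are SLC4A1, ANK1, SPTB, EPB41, EPB42, RHAG, GYPC and ADD2. They were followed through the probes that carry one of these names in the array's annotation, ignoring upper and lower case. Of the 8 genes, 6 were named, by 9 of 60305 probes, and no probe carried the name RHAG or GYPC. All 9 probes passed the filter on dim probes, so 6 of 34393 tested gene names belong to the set. The samples were whole blood of 10 DD pigs and 11 LW pigs, all 60 days old, with 1 array per pig. DD pigs are SLAdd minipigs, an inbred line homozygous at the swine leukocyte antigen locus, and LW pigs are Large White pigs, which served as controls. Both breeds were raised on the same farm and diet, and the DD pigs came from 5 litters and the LW pigs from 6, so some pigs of a breed are siblings. As a model, DD blood is that of 1 closed inbred herd. The question was whether the transcripts of this structure differ between the blood of the breeds.

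The red cell membrane is a lipid bilayer tied to a protein network on its inner face. Spectrin tetramers form the mesh of that network. The mesh is held to the bilayer at one site by ankyrin, which binds the anion exchanger band 3, and at another by protein 4.1 and adducin, which sit at the short actin filaments with glycophorin C. Inherited loss of these proteins is a known cause of spherocytosis and elliptocytosis. Mature red cells have no nucleus, so their transcripts in blood are those left in young red cells, the reticulocytes.

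The probes of SLC4A1 and SPTB are shown because the probes of each gene gave different values, and that of EPB42 because its level differed between the breeds. They are given as the array carries them, 5′ to 3′. Of the second SLC4A1 probe only the stretch around the letters AATAAA, the motif of a polyadenylation signal, is shown, with the motif in capitals.
SLC4A1, probe 1: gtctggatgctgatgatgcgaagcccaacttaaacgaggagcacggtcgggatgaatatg
SLC4A1, probe 2, stretch: ctccatggttgaAATAAAatgggg
SPTB, probe 1: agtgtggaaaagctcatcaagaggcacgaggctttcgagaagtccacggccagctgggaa
SPTB, probe 2: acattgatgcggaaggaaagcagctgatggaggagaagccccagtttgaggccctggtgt
EPB42: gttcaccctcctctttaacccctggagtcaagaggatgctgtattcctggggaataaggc

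The motif AATAAA starts at base 24 of the 60 bases of the second SLC4A1 probe. On the probe strand, 10.3% of all probes hold these letters. A match is a description of the probe and not of where the transcript ends, and whether the motif acts as a signal was not tested. In the RefSeq gene table for Sscrofa11.1, EPB42 lies at chr1:128231863-128253696, ADD2 at chr3:71729882-71845761, EPB41 at chr6:85842538-86029522, SPTB at chr7:88812717-88954471, SLC4A1 at chr12:18957813-18975266 and ANK1 at chr17:10752258-10985129. The genes RHAG, at chr7:43704152-43730944, and GYPC, at chr15:25576343-25606913, are in that table but had no probe of their name.

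The arrays lay on 3 chips that held both breeds, chips 1 and 3 with 3 DD arrays each beside 4 and 3 LW arrays, and chip 2 with 4 arrays of each breed. The share of probes well above background lay between 44.7% and 61.0% in DD pigs (median 51.9%). In LW pigs it lay between 53.0% and 63.8% (median 59.7%). The precision of every value is limited by how many arrays there are. The brightness of an array was taken as the 75th percentile of its processed signal, in log2. It was lower for DD pigs (7.53 ± 0.54, SD, n = 10) than for LW pigs (8.22 ± 0.38, SD, n = 11), with a difference of litter means of -0.68 ( two-sided exact permutation test, p = 0.00866, where 0.00433 is the smallest p that 462 divisions of the litters can give). DD and LW means were 7.95 and 8.02 on chip 1, 7.55 and 8.31 on chip 2, then 7.09 and 8.36 on chip 3. In whole blood, fewer cells of a type and less RNA per cell cannot be told apart.

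Transcripts of ANK1 and EPB42, whose proteins bind band 3, were higher in DD blood by 1.18 and 1.06 on the log2 scale. SLC4A1, which encodes band 3 itself, had a log2 FC of -0.05 (SE 0.24), averaged over probes that did not follow each other (r = -0.20). Of the 6 named genes, 2 passed an adjusted p of 0.05, both higher in DD pigs, and 0 passed lower. Over all gene names tested, 20.9% passed, 11.4% higher and 9.41% lower. The log2 FC (DD over LW) was above 0 for 5 of the 6 genes, against 45.5% of all gene names, and its median was 0.43, against -0.04 over all gene names. The difference had the same sign on all 3 chips for 3 of the 6 genes, against 44.4% of all gene names. Taken probe by probe, 2 of the 9 probes passed, those of ANK1 and EPB42, against 21.7% of all probes. None of the 6 genes separated the breeds without overlap, which 0.384% of all gene names did. Without chip 3, 0 of the 6 genes passed, against 1.52% of all gene names. With array brightness as a covariate, 0 of the 6 passed, against 2.15%.

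**Figure D1:**
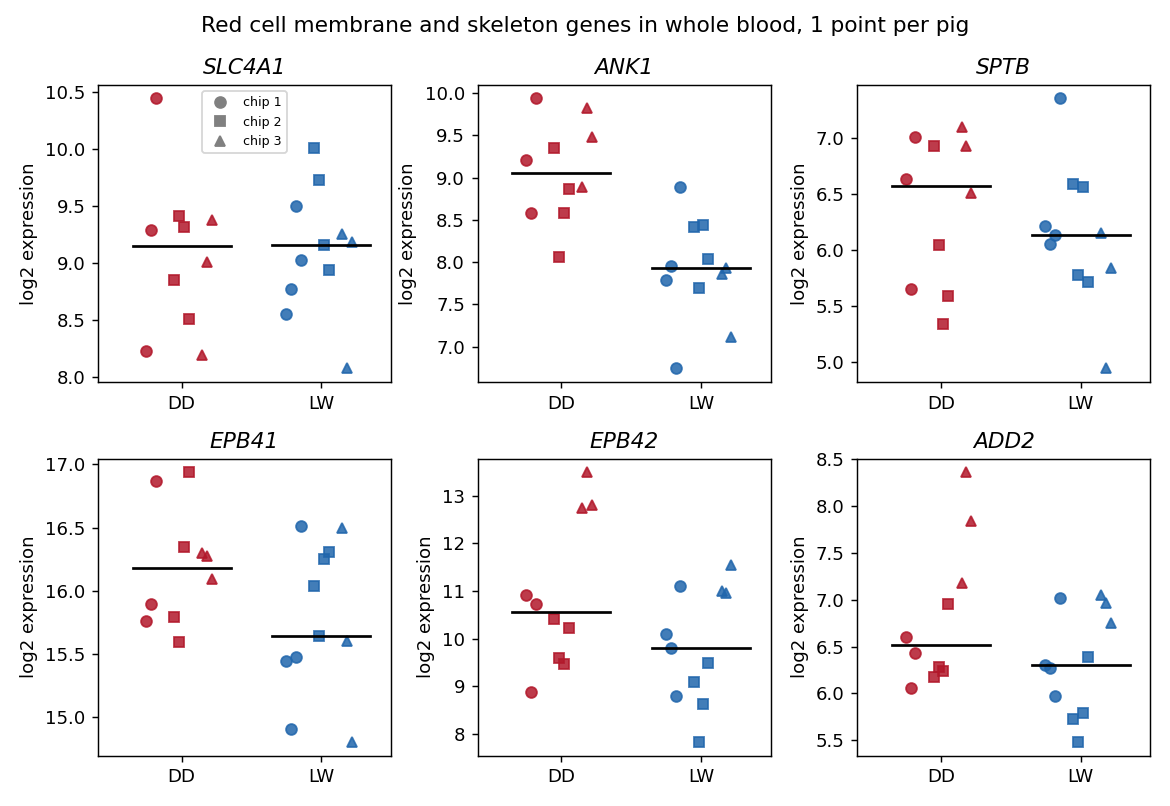
Log2 expression (vertical axis) of the 6 named genes in each DD and LW pig, with the chip given by the shape of the point and the breed median as a bar. ANK1 was above the LW median in 10 of 10 DD pigs, while for SLC4A1 the breeds overlapped over nearly their whole range.

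ANK1 encodes ankyrin 1, the adaptor that holds spectrin to band 3. Its log2 level ran from 8.06 to 9.94 in DD pigs, with a median of 9.05, and from 6.74 to 8.88 in LW pigs, with a median of 7.93. Every DD pig was above the LW median, 6 DD pigs were above all LW pigs and 8 LW pigs were below all DD pigs. The log2 FC was 1.18 (SE 0.24, adjusted p = 0.00348). DD exceeded LW by 1.40 on chip 1, 0.57 on chip 2 and 1.76 on chip 3. With each pig left out in turn, the log2 FC lay between 1.06 and 1.30 and passed in 21 of 21 fits. Without chip 3 it was 0.94 (adjusted p = 0.205), and with array brightness as a covariate 0.70 (adjusted p = 0.286), and neither passed.

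The ANK1 probe shares a run of 53 of its 60 bases with a probe of an uncharacterized protein, ENSSSCT00000007686. That probe gave a log2 FC of 1.20 (SE 0.25, adjusted p = 0.00369). It followed the ANK1 probe across pigs at r = 0.99 (n = 21, breed and chip removed), through nearly the same bases. Which transcript the ANK1 probe measured is therefore uncertain. Of 3 features tied to ankyrin-1-like descriptions but not named ANK1, 1 passed, against 20.9% of all gene names. LOC100522047 ran from 6.56 to 8.69 in DD pigs, with a median of 7.86, and from 6.08 to 7.83 in LW pigs, with a median of 7.09. The breeds overlapped, with 8 of 10 DD pigs above the LW median. Its log2 FC was 0.70 (SE 0.22, adjusted p = 0.0323), with differences of 0.82, 0.41 and 0.96 on chips 1, 2 and 3. It did not pass without chip 3 (0.62, adjusted p = 0.409) or with brightness as a covariate (0.25, adjusted p = 0.871). XM_001928667 had a log2 FC of 0.39 (SE 0.17, adjusted p = 0.11). XM_003134223, described as the same ankyrin-1-like gene as LOC100522047, did not pass, with a log2 FC of 0.30 (SE 0.17, adjusted p = 0.212). Its differences were 0.52, -0.16 and 0.67 on chips 1, 2 and 3.

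EPB42 encodes protein 4.2, which binds band 3 and ankyrin and steadies their link. Its log2 level ran from 8.88 to 13.50 in DD pigs, with a median of 10.56, and from 7.82 to 11.55 in LW pigs, with a median of 9.80. The breeds overlapped widely, and 7 of 10 DD pigs were above the LW median. The 3 DD pigs above all LW pigs were those of chip 3, where LW pigs were also high. On that chip the breed means were 13.02 and 11.17, against 10.17 and 9.95 on chip 1 and 9.92 and 8.75 on chip 2. The log2 FC was 1.06 (SE 0.29, adjusted p = 0.0204), and DD exceeded LW by 0.22, 1.16 and 1.85 on chips 1, 2 and 3. It passed with each of the 21 pigs left out in turn. It did not pass without chip 2 (1.01, adjusted p = 0.064), without chip 3 (0.73, adjusted p = 0.481), without the chip term (1.08, adjusted p = 0.201) or over litter means (1.05, adjusted p = 0.173).

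EPB42 followed array brightness closely. After breed and chip were removed, its level correlated with brightness at r = -0.89 (n = 21 arrays, described with no test), and with brightness as a covariate the log2 FC was 0.06 (SE 0.19, adjusted p = 0.987). A second probe, annotated with the gene ID LOC100152957 that the RefSeq table gives to EPB42, ran from 10.40 to 12.33 in DD pigs and from 9.81 to 11.77 in LW pigs. All 10 DD pigs were above the LW median of 10.26. Its log2 FC was 0.98 (SE 0.26, adjusted p = 0.0161), with differences of 0.98, 0.70 and 1.39 on chips 1, 2 and 3. It followed brightness less, at r = -0.50, and was 0.51 (adjusted p = 0.600) with brightness as a covariate and 0.87 (adjusted p = 0.315) without chip 3.

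**Figure D2:**
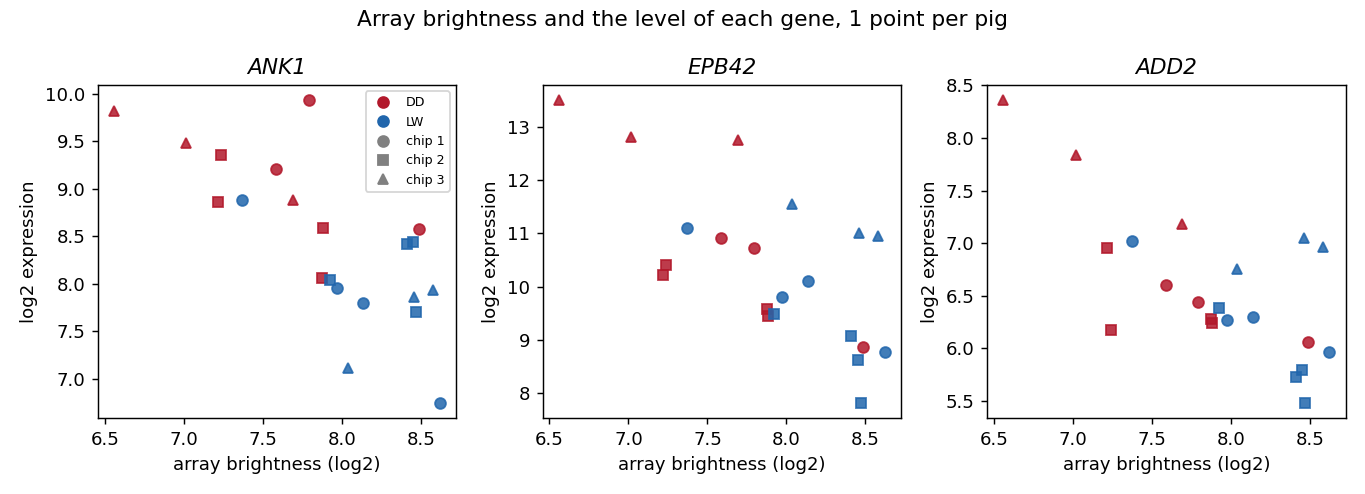
Log2 expression of ANK1, EPB42 and ADD2 (vertical axes) against the brightness of the array (horizontal axes, log2), 1 point per pig. The 3 highest values of EPB42 and of ADD2 were those of the DD arrays of chip 3, among them the dimmest 2 arrays.

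SLC4A1 encodes band 3, the chloride and bicarbonate exchanger that anchors the skeleton. Averaged over its probes, its log2 level ran from 8.20 to 10.44 in DD pigs, with a median of 9.15, and from 8.07 to 10.01 in LW pigs, with a median of 9.16. The breeds overlapped over nearly their whole range, and 5 of 10 DD pigs were above the LW median. The log2 FC was -0.05 (SE 0.24, adjusted p = 0.903), with DD minus LW differences of 0.36, -0.44 and 0.02 on chips 1, 2 and 3.

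The probes of SLC4A1 did not behave alike. Probe 1 spread from 5.93 to 10.64 in DD pigs and from 5.94 to 9.43 in LW pigs, with medians of 7.96 and 8.07 and a log2 FC of 0.09 (SE 0.47, adjusted p = 0.910). Probe 2 spread only from 9.69 to 10.86 in DD pigs and from 10.05 to 11.07 in LW pigs, with medians of 10.25 and 10.46 and a log2 FC of -0.18 (SE 0.12, adjusted p = 0.299). For probe 2 the DD minus LW difference was -0.20, -0.14 and -0.23 on chips 1, 2 and 3, and 3 of 10 DD pigs were above the LW median. Across pigs the probes correlated at r = -0.20 (n = 21, breed and chip removed). A further feature with the same 60 bases as probe 1, listed under an expressed sequence tag, followed probe 1 at r = 0.997 and had a log2 FC of 0.15 (SE 0.47, adjusted p = 0.838). The wide spread of probe 1 was therefore measured on a pair of spots per array.

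**Figure D3:**
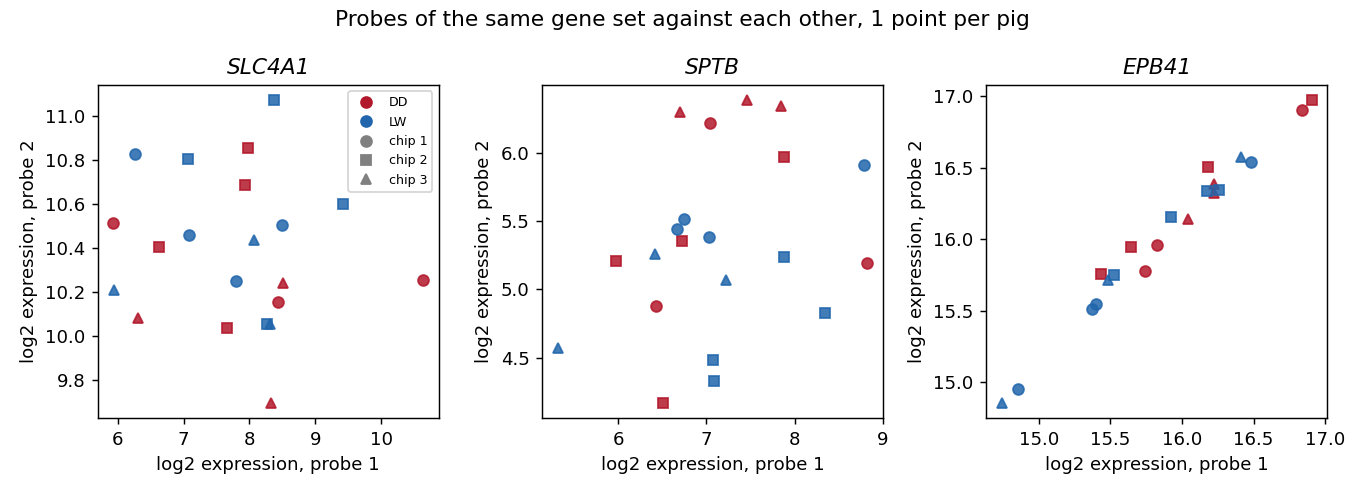
Log2 expression of the probes of SLC4A1, SPTB and EPB41 set against each other, 1 point per pig, coloured by breed and shaped by chip. The EPB41 probes correlated at r = 0.99, the SPTB probes at 0.46 and the SLC4A1 probes at -0.20.

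SPTB encodes the erythrocytic beta spectrin chain. Averaged over its probes, its log2 level ran from 5.34 to 7.09 in DD pigs, with a median of 6.56, and from 4.94 to 7.35 in LW pigs, with a median of 6.13. No DD pig was above all LW pigs. The log2 FC was 0.27 (SE 0.24, adjusted p = 0.435), with differences of -0.0049 on chip 1, -0.19 on chip 2 and 1.20 on chip 3. Probe 1 gave 0.02 (SE 0.35, adjusted p = 0.979) and probe 2 gave 0.53 (SE 0.21, adjusted p = 0.0777), and they were related at r = 0.46 (n = 21). Probe 2 was well above background in 7 of 10 DD pigs and 9 of 11 LW pigs, while the other 8 probes of the set were so in every pig.

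EPB41 encodes protein 4.1, which ties spectrin and actin to glycophorin C. Its log2 level ran from 15.60 to 16.94 in DD pigs, with a median of 16.18, and from 14.80 to 16.51 in LW pigs, with a median of 15.64. In 9 of 10 DD pigs it was above the LW median, and the ranges overlapped. The log2 FC was 0.40 (SE 0.22, adjusted p = 0.185), with differences of 0.59, 0.11 and 0.59 on chips 1, 2 and 3. Its probes gave 0.40 and 0.41 and followed each other at r = 0.99 (n = 21). A contig described as band 4.1 under another name, TC536273, had a log2 FC of -0.17 (SE 0.16, adjusted p = 0.478).

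ADD2 encodes beta adducin, which caps the actin filaments of the skeleton. Its log2 level ran from 6.06 to 8.36 in DD pigs, with a median of 6.52, and from 5.48 to 7.05 in LW pigs, with a median of 6.30. The breeds overlapped, 6 of 10 DD pigs were above the LW median, and the 3 DD pigs above all LW pigs were those of chip 3. The log2 FC of 0.46 (SE 0.17, adjusted p = 0.0523) missed the threshold. The differences were -0.02, 0.57 and 0.87 on chips 1, 2 and 3. It passed when DD pig 6 (0.54, adjusted p = 0.0189), LW pig 7 (0.55, adjusted p = 0.0128) or LW pig 15 (0.52, adjusted p = 0.0348) was left out. It also passed under 6 of 15 other settings, which were own values from the scanner files (0.48, adjusted p = 0.0458), a background offset of 50 (0.32, adjusted p = 0.0465), scaling to the 75th percentile (0.61, adjusted p = 0.0393), a filter on signal well above background (0.46, adjusted p = 0.0380), the probe with the highest mean (0.46, adjusted p = 0.0497) and chip 1 left out (0.71, adjusted p = 0.0164). ADD2 followed brightness at r = -0.85 (n = 21), and its log2 FC was -0.05 (adjusted p = 0.980) with brightness as a covariate. The ADD2 probe shares 40 bases in a row with a probe named USP12 and 29 with one named LOC100516303, so which transcript it measured is uncertain. Those probes had a log2 FC of 0.31 (adjusted p = 0.218) and 0.12 (adjusted p = 0.359).

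**Figure D4:**
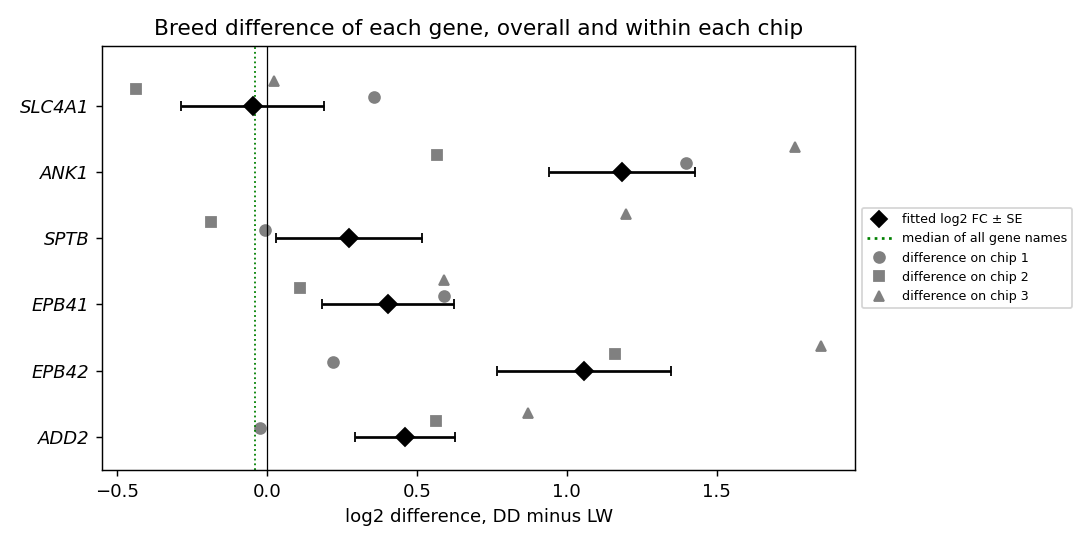
Fitted log2 FC with its SE (diamonds) and the difference of breed means on each chip (grey symbols) for the 6 named genes, with the median of all gene names as a dotted line. ANK1, EPB41 and EPB42 were above 0 on all 3 chips, while SLC4A1, SPTB and ADD2 were not.

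The genes varied together to different degrees within the breeds. After breed and chip were removed, ADD2 and EPB42 were the most alike pair (r = 0.77), followed by EPB42 with SPTB (r = 0.62), ANK1 with SPTB (r = 0.605) and ANK1 with EPB42 (r = 0.60). SLC4A1 stood apart, with r between -0.23 and 0.20 against the other genes. Its level here is the mean of probes that did not follow each other (r = -0.20). These correlations share the 21 arrays and their brightness, and are given with no test. Brightness itself correlated with ANK1 at r = -0.54, SPTB at -0.50, EPB41 at -0.16 and SLC4A1 at 0.17. Over all gene names tested, the 10% lowest such correlations lay below -0.72 and the 10% highest above 0.62.

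Among all gene names, those most like EPB42 were AK345222 (r = 0.99), CN030225 and DN123732 (r = 0.985 each), which are transcripts with no gene name here. ANK1 was most like ENSSSCT00000007686 (r = 0.92), which holds the probe that shares its bases, then the ankyrin-1-like LOC100522047 (r = 0.88) and FAM46C (r = 0.87). SPTB was most like MKRN1 (r = 0.92), LOC100152425 (r = 0.91) and LOC100525341 (r = 0.90), the last being described as FAM46C. EPB41 was most like TC597994 (r = 0.92), described as RING finger protein 10, and a pair of unnamed cDNA clones (r = 0.91 and 0.90). ADD2 was most like EW573035 (r = 0.97), TC578481 (r = 0.96) and AK395070 (r = 0.95). Beside the feature of the same bases, SLC4A1 was most like an unnamed cDNA clone and RALGDS (r = 0.80 each).

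Other genes of the membrane passed in both directions, in small numbers that are to be read against the 11.4% of all gene names that passed higher and the 9.41% that passed lower. Of 12 tested skeleton partners, 0 passed higher and 2 lower, and the list median was 0.00. TMOD3, a tropomodulin that caps actin filaments in many cells, fell by 0.85 on the log2 scale (SE 0.20, adjusted p = 0.00953), with no DD pig above the LW median. ACTB, the actin of most cells, fell by 0.37 (SE 0.10, adjusted p = 0.0226). EPB49, the older name of dematin, had a log2 FC of 0.48 (SE 0.23, adjusted p = 0.145). No tested gene was named TMOD1.

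Of 13 tested membrane transporters and channels, 2 passed higher and 1 lower (median 0.08). KCNN4, the calcium-activated potassium channel that sets red cell water content, rose by 0.55 (SE 0.17, adjusted p = 0.0275). ABCG2, a transporter that exports porphyrins among other substrates, rose by 0.50 (SE 0.15, adjusted p = 0.0265). SLC16A1, a lactate transporter, fell by 0.40 (SE 0.13, adjusted p = 0.0383). On chips 1, 2 and 3 the differences were 0.06, 0.56 and 1.08 for KCNN4. They were 0.44, 0.34 and 0.76 for ABCG2, and -0.11, -0.19 and -1.02 for SLC16A1.

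Of 11 tested blood group and surface proteins, 2 passed higher and 0 lower (median -0.01). CD36, a scavenger receptor also found on monocytes and platelets, rose by 0.78 (SE 0.17, adjusted p = 0.00559). For CD36, 9 of 10 DD pigs were higher than any LW pig, but the remaining DD pig was lower than any LW pig. ART4, the carrier of the Dombrock antigens, rose by 0.44 (SE 0.12, adjusted p = 0.0216). KEL had a log2 FC of 0.07 (SE 0.21, adjusted p = 0.835). No tested gene was named RHD, RHCE or XK.

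Of 19 tested paralogs of the 8 genes, most of which act mainly outside red cells, 3 passed higher and 1 lower (median 0.03). ADD1 and ADD3 were counted both here and among the skeleton partners, and neither passed. SPTBN4, a beta spectrin of neurons, rose by 0.84 (SE 0.23, adjusted p = 0.0191), and TGM2, a transglutaminase of the family protein 4.2 belongs to, rose by 0.50 (SE 0.17, adjusted p = 0.0449). SPTBN1, the broadly expressed beta spectrin, fell by 0.33 (SE 0.12, adjusted p = 0.0474). On chips 1, 2 and 3 the differences were 0.0046, 0.86 and 1.74 for SPTBN4. They were 0.14, 0.42 and 1.03 for TGM2, and -0.14, -0.36 and -0.49 for SPTBN1. RHBG, a paralog of RHAG, had a log2 FC of 0.97 (SE 0.29, adjusted p = 0.0282), with a difference of -0.06 on chip 1 against 1.34 and 1.61 on chips 2 and 3.

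**Figure D5:**
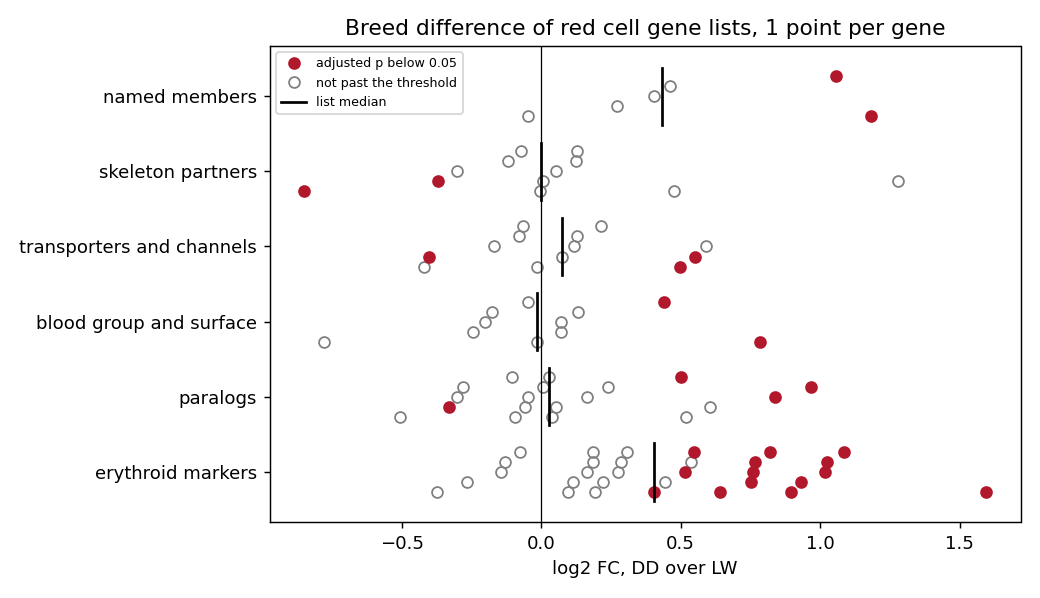
Log2 FC of each tested gene, DD over LW, in the named set and in the other red cell lists (rows), with genes past an adjusted p of 0.05 filled and the list median as a bar. The medians of the named set and of the erythroid markers lay near 0.4, and those of the other lists near 0.

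Most markers of young red cells, like most genes of the set, had a log2 FC above 0. Of 31 tested erythroid markers, 14 passed higher and 0 passed lower, against 11.4% and 9.41% of all gene names. The log2 FC was above 0 for 26 of the 31 and below 0 for 5. Among those 5 were AHSP (-0.27, below 0 on all 3 chips, adjusted p = 0.461) and TFRC (-0.13, adjusted p = 0.402). The median log2 FC of the markers was 0.40. XPO7, an exportin of maturing red cells, rose by 1.60 (SE 0.24, adjusted p = 2.02e-04), YOD1, a deubiquitinase, by 1.02 (SE 0.24, adjusted p = 0.00802) and CA1, the carbonic anhydrase of red cells, by 1.02 (SE 0.35, adjusted p = 0.0443). HBB, the beta globin, had a log2 FC of 0.31 (SE 0.20, adjusted p = 0.270). The mean log2 level of the 31 markers ran from 9.65 to 10.81 in DD pigs and from 9.54 to 10.65 in LW pigs, and 9 of 10 DD pigs were above the LW median. With breed and chip removed, this mean correlated with EPB42 at r = 0.85, ADD2 at 0.80, ANK1 at 0.75, EPB41 at 0.66, SPTB at 0.65 and SLC4A1 at 0.05, and with array brightness at -0.81. With brightness as a covariate the median of the 31 markers was 0.00, and without chip 3 it was 0.21. In both fits 2 of the 31 passed higher, SLC25A38 and XPO7. Over all gene names, 2.15% passed with brightness as a covariate and 1.52% without chip 3, against 20.9% in the main fit. The part of young red cells in the breed difference of the set was not tested.

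Markers of other blood cells were present and overlapped between the breeds. Of 13 T cell markers, 4 passed lower and 0 higher (median -0.38), and the mean of the list ran from 8.24 to 9.49 in DD pigs and from 8.68 to 9.62 in LW pigs. Monocyte markers passed lower for 3 of 9 genes (median -0.08), cytotoxic and NK markers for 1 of 8 (median -0.34) and platelet markers for 1 of 8 (median -0.10). Of 8 B cell and 7 granulocyte markers, 0 passed in either direction (medians 0.14 and 0.17). Over all gene names, 11.4% passed higher and 9.41% lower. The part of these cells in the breed difference of the set was not tested.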

How the data were processed

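RNA of whole blood was measured on a custom pig array from Agilent, with 1 colour. Per the labels, the submitters' processing notes name Agilent Feature Extraction 10.7.3.1. The deposited log2 matrix was background corrected and quantile normalized by the authors, who had left out arrays after quality assessment. The deposited scanner files hold intensity values without normalization between arrays, and other columns with flags for signal well above background, set by the authors' software. The saturation flag was set for 0 probes. Blood counts and 16S data were not used here.

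Breed came from the labels, and chip and litter from the study's animal list. Controls (2477 blank rows of the matrix) and the 25% of probes with the lowest mean were left out, and probes of a gene name were averaged. The limma model held breed and chip as fixed terms and litter as a random block (consensus correlation -0.11), with Benjamini-Hochberg adjustment over 34393 gene names or 45228 probes. With this correlation below 0, the block did not make the fits more cautious for siblings. Without the block the SE was 0.253 for ANK1 and 0.308 for EPB42, against 0.243 and 0.292 with it. An adjusted p below 0.05 was called passing. p-values of the fits measure the spread between pigs, some of them siblings, and that of brightness the spread between litter means. Array brightness was compared by an exact permutation of litter means. Correlations used values with breed and chip removed.

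Genes named beyond the set were, per list, up to 4 with the largest absolute log2 FC among those past the threshold with the same sign on all 3 chips, further genes given by name, and the 3 gene names most like each gene of the set. Features described as one of the genes under another name, RHBG and HBB were added after their values were seen. Some results of this rule are not reported here. The members and lists were chosen with earlier results of these data known. The alternatives were own values from the scanner files (normexp offset 0 or 50), scaling to the 75th percentile, other filters, other ways to name or choose probes, fits without the block or without the chip term, litter means, leaving out each chip or each pig, brightness as a covariate, and eBayes with trend and robust fitting. Leaving out a pig kept the consensus correlation. The fit was tested on simulated data. Probe sequences were compared by shared runs of 16 or more bases. Positions come from the RefSeq table of Sscrofa11.1. Fits were run in R (4.3.3) with the packages data.table (1.17.8), limma (3.58.1) and statmod (1.5.0). Tables and figures used matplotlib (3.10.9), pandas (2.3.3) and Python (3.11.15).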

Additional observations from a re-analysis of the deposited data

How the results depend on the processing

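Of the 6 named genes, 2 passed in the breed comparison. With single pigs left out, 2 to 3 passed, and 2 to 3 passed under own values from the scanner files, the other background offset, scaling, filters, probe choices, no block, robust fitting or without chip 1. The count was 1 without the chip term, over litter means and without chip 2, and 0 without chip 3 and with array brightness as a covariate. Of the 7171 gene names that passed in all, the count fell to 4397 with no filter on dim probes, 1866 without the chip term, 933 over litter means, 739 with array brightness as a covariate and 524 without chip 3, so the background share depends on the same settings. Without the litter block, the count was 4894. With single pigs left out it ran from 3606 (without DD pig 21) to 9688 (without DD pig 6), and was lower by more than 1.5 times without DD pigs 1, 10, 21 or 23 or LW pigs 5, 12, 18, 22 or 24. The number of probes of the set that passed was 2, and 3 with own values. The direction of SLC4A1, which passed under no setting, turned from -0.05 to 0.010 under scaling to the 75th percentile, 0.00146 over litter means, 0.33 without chip 2 and 0.10 with the brightness covariate, and ran from -0.24 to 0.079 with single pigs left out. SPTB turned to -0.14 without chip 3 and -0.19 with the brightness covariate. ADD2 turned to -0.052 with the brightness covariate. With alternatives chosen after seeing the data, XM_001928667 turned to -0.14 and TC536273 to 0.20 with the brightness covariate, and erythroid markers that passed higher numbered 2, against 14, both with the brightness covariate and without chip 3. The breed difference of brightness was -0.55 when taken as the median of the net spot signal (p = 0.0541, two-sided exact permutation test). The cause of these changes was not tested. Fits without a chip and over litter means also held fewer samples. Gene names that passed numbered 7697 without chip 1 and 4807 without chip 2. No paired analysis was possible because the pig numbers of the breeds are not shared. Brightness differed between the breeds most on chip 3, so that brightness, chip 3 and breed cannot be fully told apart.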

Other observations

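Residual spread was wide for most of the set. After breed and chip were removed, the SD of EPB42 was 0.77 on the log2 scale, above that of 96.2% of all gene names tested. SPTB (0.65), ANK1 (0.63), SLC4A1 (0.62) and EPB41 (0.55) lay above 84.2% to 91.0% of gene names, and ADD2 (0.42) above 63.6%. Probes of the set held 35.0% to 55.0% G and C, against a median of 41.7% over all probes.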
